A study of Neurospora crassa with 12 samples.

Results

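The carotenoid synthesis genes of Neurospora crassa were examined in a transcript annotation assembled from RNA-seq. The set was chosen by name and not by a cut on any measured value, but with earlier results of these data known. It comprises al-3 (NCU01427), al-2 (NCU00585), al-1 (NCU00552), cao-2 (NCU11424) and ylo-1 (NCU04013), 5 of the 9730 annotated genes in the file. Each locus was taken as the annotated transcripts of the gene together with every unannotated transcript that overlapped the gene or lay within 2 kb of it on either strand. This gave 24 of the 21475 transcripts, of which 6 were annotated and 18 unannotated.

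Neurospora makes the orange carotenoid neurosporaxanthin in its conidia and, upon illumination, in its mycelia, where the White collar complex activates the synthesis genes. AL-3 makes geranylgeranyl diphosphate, AL-2 joins this precursor into phytoene and later closes a ring, and AL-1 desaturates phytoene. CAO-2 then cleaves the resulting torulene to an aldehyde, which YLO-1 oxidizes to neurosporaxanthin. Loss of an al gene turns the orange fungus pale, which gave the genes the name albino.

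RNA came from mycelia of WT, Δkmt2/Δset-1 (without the H3K4 methyltransferase KMT2/SET-1) and Δkmt1/Δdim-5 (without the H3K9 methyltransferase KMT1/DIM-5). Every culture grew for 2 days at 25 °C, first in light and then for 24 h in the dark, and was harvested at that point (DD24) or after a further 30 min of light (LP30). This made 6 groups with 2 biological replicates each, or 12 libraries. Each genotype was represented by 1 strain, and the deletion strains had been backcrossed to the WT strain. The deposited file pools all libraries into a single annotation of positions, strands and exons, without a level for any library, so depth, replicate spread, the deleted genes, the tissue markers and the response of the carotenoid genes to light or to either deletion could not be measured. The values below describe gene structure, with the same measure over all annotated genes set beside them, and no test was run on 5 genes.

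The 5 genes lie on 4 chromosomes, and all 5 are on the minus strand, as are 49.6% of annotated genes. Positions refer to assembly NC12. On chromosome I, al-2 (7920916 to 7924255) and al-1 (8029857 to 8032395) are 105601 bp and 35 annotated genes apart. The al-3 gene lies on chromosome V (4030155 to 4032913), ylo-1 on chromosome VI (2441355 to 2444495) and cao-2 on chromosome VII (2483 to 4931). Thus the 3′ end of cao-2 lies 2482 bp from the first base of its supercontig, with a single annotated gene, NCU09306, beyond it. Their longest annotated transcripts had 2277 nt of exon (al-3), 2354 nt (al-1), 2388 nt (cao-2), 2789 nt (ylo-1) and 3212 nt (al-2), against a median of 1940 nt over all genes. All 5 genes were longer than that median, between the percentiles of 61.0 (al-3) and 81.9 (al-2), where a percentile is the share of genes with a lower value, with ties at their mid-rank.

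All 5 genes had an assembled transcript on their locus, as did 91.5% of all genes, and all 5 had at least 1 unannotated transcript at the gene or within 2 kb, as did 87.7%. However, the loci differed in what lay beside the annotated model. Among the 18 unannotated transcripts, 6 were isoforms of a carotenoid gene, which means that they shared exon sequence with it on the same strand. A further 4 were antisense transcripts (NATs) of a carotenoid gene, with exon overlap on the opposite strand only. The other 8 belonged to the neighbourhood, as 3 isoforms and 4 antisense transcripts of neighbouring genes and 1 intergenic transcript. An unannotated isoform was found for 3 of the 5 genes (al-3, ylo-1 and cao-2), and 36.4% of all genes had one. An antisense transcript was found for al-1 and al-2, 2 of 5, and 21.2% of all genes had one. With 5 genes, these counts are given as a description only.

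**Figure D1:**
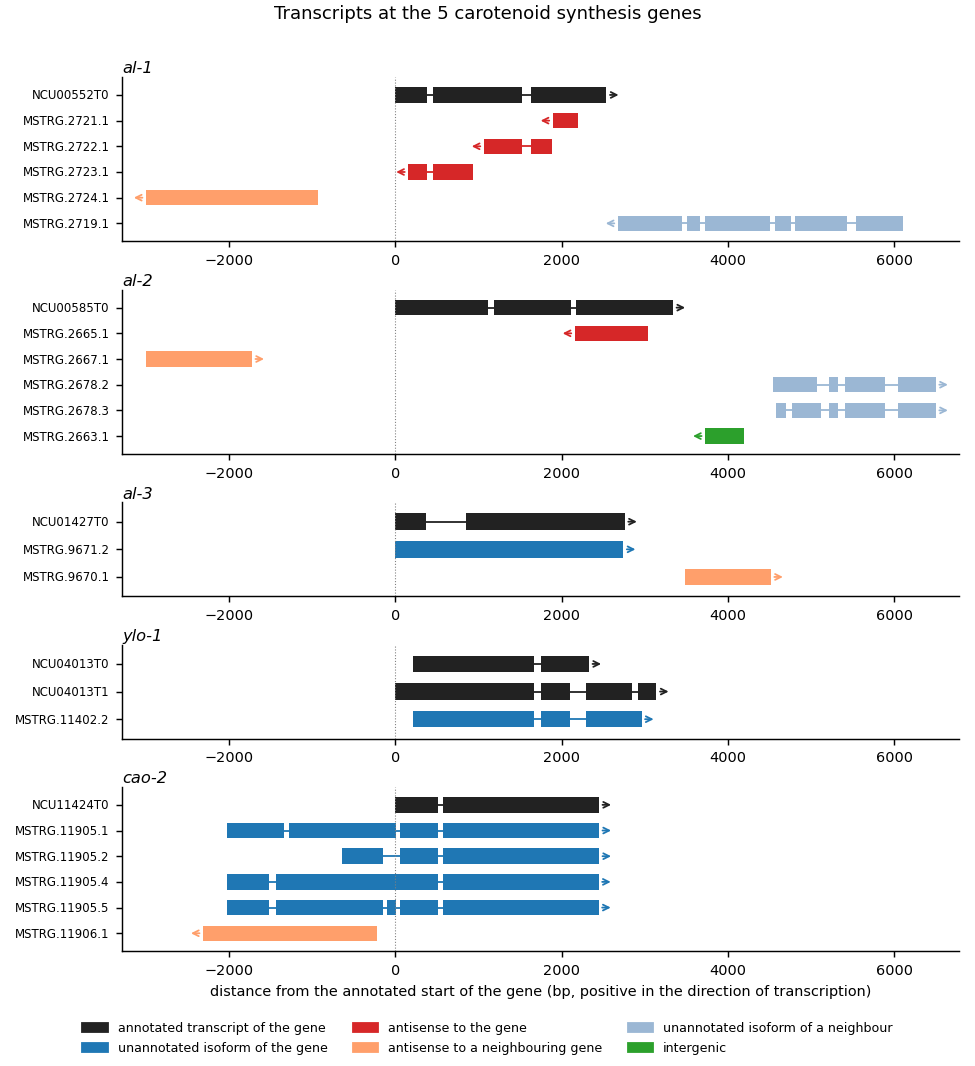
Exons (boxes), introns (lines) and direction (arrowheads) of the 24 transcripts at the 5 loci, by distance from the annotated start of each gene in bp, with colours for the relation to the gene. Transcripts that run past the plotted range are clipped. Red antisense transcripts lie over al-1 and al-2 alone, and blue isoforms reach upstream of the start only at cao-2.

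The al-3 gene, which encodes geranylgeranyl diphosphate synthase, differed from the other members in its intron and in its surroundings. Its only intron was 482 bp long (4032066 to 4032547). The median over 17854 annotated introns was 76 bp (quartiles 62 and 117 bp), and 397 introns were as long or longer, which placed that of al-3 at the percentile of 97.8. The unannotated isoform MSTRG.9671.2 (4030172 to 4032913, 1 exon, 2742 nt) retained this intron whole. It began at the annotated start, stopped 17 bp short of the annotated 3′ end and had 465 nt more exon than the annotated transcript. Retention as such was common, as 21.6% of all genes had an isoform that retained an annotated intron. That share includes genes without an intron, and 7983 genes (82%) had 1 or more.

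At its 3′ end al-3 met the convergent gene NCU01426 (4027782 to 4030186, plus strand), with 32 bp of annotated exon in common. An annotated neighbour on the opposite strand with shared exon was present for 21.9% of genes and, within the pathway, for al-3 alone. NCU01426 in turn had an antisense transcript, MSTRG.9670.1 (4028398 to 4029424, 1027 nt), which ran in the direction of al-3, began 730 bp past its 3′ end and covered 824 bp of NCU01426 exon. On the 5′ side no annotated gene followed for 33473 bp, up to NCU06636. Of 8577 gaps between annotated genes, 44 were as long or longer, and the median gap was 781 bp. The gap held a single unannotated transcript, which covered 215 bp near its far end, so that the 32891 bp next to the al-3 start carried no transcript on either strand. No assembled transcript of al-3 began upstream of the annotated start.

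The al-2 gene, which encodes the bifunctional phytoene synthase and carotene cyclase, had no unannotated isoform. Its annotated introns were 71 and 57 bp long. Its start lay 11 bp from that of the divergent gene NCU00584 (7924267 to 7926022, plus strand). This was at the percentile of 0.60 among 7504 genes with no annotated overlap and a neighbour on the 5′ side, whose median 5′ gap was 912 bp. Starts at most 100 bp apart in a head-to-head arrangement without overlap were found for 76 genes (0.781%). The antisense transcript MSTRG.2665.1 (7921213 to 7922096, plus strand, 1 exon, 884 nt) lay inside al-2, from 2159 to 3042 bp downstream of its start. It covered 868 bp, or 27% of al-2 exon, all of it in the last exon, and ran 16 bp into the intron of 57 bp. Among the 2066 genes with an antisense transcript the median share of exon covered was 29% (quartiles 12.2 and 73.6), so al-2 stood near the middle at the percentile of 48.5.

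Further transcripts flanked al-2 on both sides. Downstream, MSTRG.2663.1 (7920058 to 7920528, plus strand, 471 nt) was the only intergenic transcript within 2 kb of any of the 5 genes. Thus 1 of the 5 genes had one, and 29.1% of all genes did, a difference too small to read with 5 genes. MSTRG.2663.1 ran towards al-2 and ended 387 bp from the al-2 3′ end. Farther along, the cell wall protein gene ncw-6 (NCU00586, minus strand) had the unannotated isoforms MSTRG.2678.2 and MSTRG.2678.3, which began 1204 and 1243 bp beyond al-2. On the other side, past NCU00584, MSTRG.2667.1 (7925982 to 7931251, minus strand) was a single exon of 5270 nt in the direction of al-2. It overlapped the last 41 bp of NCU00584 and ended 1726 bp upstream of the al-2 start. The gap it occupied, 5528 bp long, was covered by unannotated transcripts over 94.6% of its length.

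The al-1 gene, which encodes phytoene desaturase, had no unannotated isoform but 3 antisense transcripts, more than any other member. This number was reached or passed by 97 genes (0.997%). MSTRG.2721.1 (8030203 to 8030501, plus strand) was a single exon of 299 nt in the last al-1 exon. MSTRG.2722.1 (8030518 to 8031330) and MSTRG.2723.1 (8031462 to 8032239) had 2 exons each, with 705 and 701 nt. The transcripts followed one another head to tail with 16 and 131 bp between them. Every exonic base of the 3 lay within al-1 exon, 1705 bp in all, or 72.4% of al-1 exon, and none passed an end of the gene. This coverage was at the percentile of 74.7 among genes with an antisense transcript, and 524 of all genes (5.39%) had as much or more.

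The introns of these antisense transcripts were those of al-1 itself. The intron of MSTRG.2723.1 (8031944 to 8032020, 77 bp) had exactly the ends of the first al-1 intron, and that of MSTRG.2722.1 (8030769 to 8030876, 108 bp) exactly those of the second. The file thus gives both introns on both strands. Across the annotation, 129 of 712 antisense transcripts with 2 or more exons (18.1%) carried an annotated intron of the gene opposite, at 119 genes (1.22%). Of 4805 genes with at least 2 introns, al-1 was 1 of 24 for which antisense transcripts carried every intron. It was also 1 of 8 genes with at least 2 antisense transcripts that each carried such an intron. No intron of the other carotenoid genes was found on the opposite strand. The transcripts with these introns, MSTRG.2722.1 and MSTRG.2723.1, gave 705 and 701 bp of the 1705 bp of al-1 exon covered. The reads are not in the file, so the strand of the reads behind these exons was not examined. The antisense count and coverage of al-1 therefore rest on the strand that the annotation gives.

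**Figure D2:**
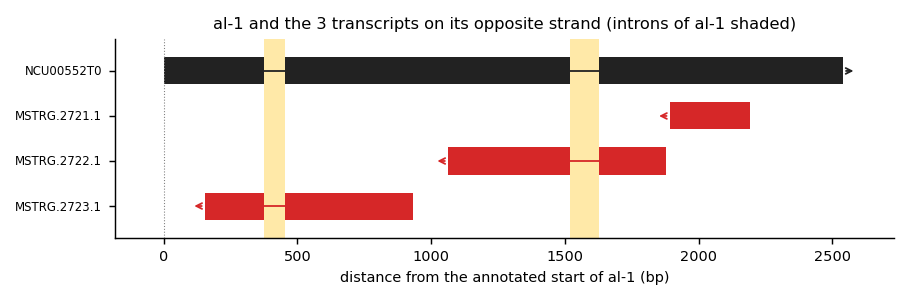
Annotated al-1 transcript (black) and the antisense transcripts MSTRG.2721.1, MSTRG.2722.1 and MSTRG.2723.1 (red), by distance from the annotated al-1 start in bp, with boxes for exons, arrowheads for direction and the al-1 introns of 77 and 108 bp shaded. The gaps in the red transcripts coincide with the shaded introns, and the red boxes cover 72.4% of al-1 exon.

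Both flanks of al-1 also carried transcripts. Downstream, the convergent gene NCU00553 (8026284 to 8029718, plus strand) ended 138 bp from the al-1 3′ end, and its isoform MSTRG.2719.1 (6 exons, 3083 nt) had the same ends. Upstream, MSTRG.2724.1 (8033324 to 8039349, plus strand, 1 exon, 6026 nt) began 928 bp from the al-1 start and ran away from it. It was antisense to the myosin gene myo2 (NCU00551), of which it covered 5249 bp or 64.5% of the exon. The interval of 1644 bp between al-1 and myo2 was thus covered by this transcript over 716 bp, and the 928 bp next to the al-1 start were free of transcripts.

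The cao-2 gene, which encodes the torulene-cleaving oxygenase, had 4 unannotated isoforms, a number reached or passed by 246 genes (2.53%). All 4 kept the annotated cao-2 intron of 61 bp (4355 to 4415), ended at the annotated 3′ end or 4 bp before it, and began upstream of the annotated start. They were the only isoforms of the 5 genes to pass an annotated end. An isoform that passed the 5′ end was found for 14.5% of all genes and one that passed the 3′ end for 13.1%, and no carotenoid gene had the latter. MSTRG.11905.2 (2483 to 5576, 3 exons, 2830 nt) extended cao-2 by 645 bp. The median extension of 1638 such isoforms of a single gene was 368 bp, with 645 bp at the percentile of 64.3. Its start lay 16 bp short of NCU09305, the next gene upstream on the same strand.

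The other 3 isoforms joined cao-2 to NCU09305 (5593 to 6962, minus strand). Isoforms with exon in another annotated gene of the same strand were found for 5.34% of genes and, in this pathway, for cao-2 alone. MSTRG.11905.1 (4 exons, 4317 nt), MSTRG.11905.4 (3 exons, 4342 nt) and MSTRG.11905.5 (5 exons, 4241 nt) all began at 6962, the annotated start of NCU09305, 2031 bp upstream of that of cao-2. Each held all 1244 bp of NCU09305 exon, crossed the 661 bp between the genes and continued through cao-2. None of them had both NCU09305 introns. MSTRG.11905.1 kept the intron of 53 bp and retained that of 73 bp, whereas MSTRG.11905.4 and MSTRG.11905.5 kept the intron of 73 bp and retained that of 53 bp. No other unannotated isoform of NCU09305 was present. On its strand the merged annotation held for this gene only its annotated model and transcripts that ran on into cao-2. The assembler placed both genes in 1 assembly gene, and 267 assembly genes held 2 or more annotated genes each, 546 annotated genes in all.

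New introns appeared at the cao-2 start. MSTRG.11905.1 and MSTRG.11905.5 had an intron of 49 bp (4876 to 4924) that began 7 bp and ended 55 bp downstream of the annotated start. MSTRG.11905.2 ended its intron at the same base but began it upstream of the gene, which gave 203 bp (4876 to 5078). MSTRG.11905.5 also used this upstream donor for an intron of 52 bp (5027 to 5078). MSTRG.11905.4 had neither and read through the whole region as exon. The introns of 49 and 52 bp were short for this genome, at the percentiles of 0.70 and 2.87 of annotated introns. The file gives no coding sequence, so the effect on the cao-2 reading frame was not determined. On the plus strand, MSTRG.11906.1 (5153 to 7244, 2092 nt) was antisense to all of NCU09305 exon and to 281 bp of NCU09304. Its 5′ end lay 221 bp upstream of the annotated cao-2 start without reaching it. However, this transcript overlapped the extended isoform MSTRG.11905.2 by 424 bp and also lay over the upstream part of the isoforms joined to NCU09305.

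**Figure D3:**
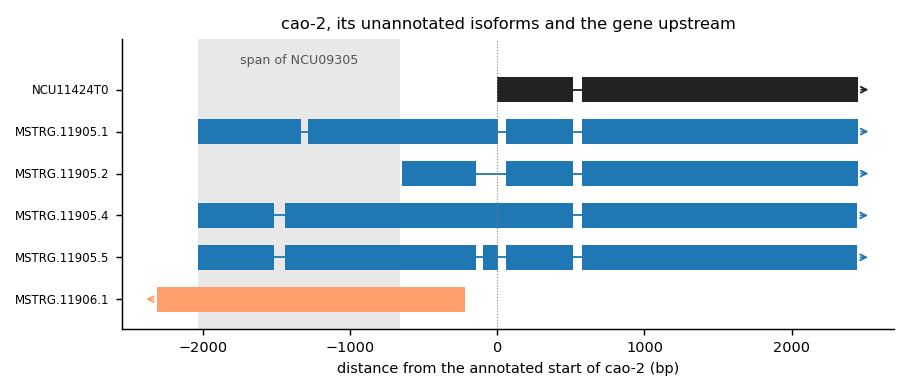
Annotated cao-2 transcript (black), its 4 unannotated isoforms (blue) and MSTRG.11906.1 on the opposite strand (orange), by distance from the annotated cao-2 start in bp, with boxes for exons, lines for introns and the span of NCU09305 in grey. MSTRG.11905.1, MSTRG.11905.4 and MSTRG.11905.5 begin at the start of NCU09305, 2031 bp upstream, and MSTRG.11905.2 begins 645 bp upstream, just outside the grey span.

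The ylo-1 gene, which encodes the aldehyde dehydrogenase of the last step, was the only member with more than 1 annotated transcript. NCU04013T1 had 4 exons over the whole gene, and NCU04013T0 (2442167 to 2444287) had 2 exons, began 208 bp later and ended 812 bp earlier. The unannotated isoform MSTRG.11402.2 (2441535 to 2444287, 3 exons, 2482 nt) shared features with both. It began at the start of NCU04013T0 and kept the introns of 84 and 187 bp of NCU04013T1. It retained the last intron of NCU04013T1, of 81 bp (2441573 to 2441653), and ended 180 bp before its 3′ end. No other unannotated transcript lay within 2 kb, which made ylo-1 the plainest locus, with 1 against a median of 2 per gene and 5 each at al-1, al-2 and cao-2. Its neighbours NCU04012 and NCU04014 are on the same strand, 493 and 829 bp away.

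Over the pathway, 2 of the 9 annotated introns were retained in an isoform, those of 482 bp in al-3 and of 81 bp in ylo-1, and 16.1% of all annotated introns were. Over the genome, retention was less frequent among shorter introns, at 14.1% of those from 60 to 79 bp (exact 95% interval 13.3 to 15.0). It was 16.1% from 80 to below 120 bp, the bin of the ylo-1 intron. Longer introns stood at 20.2% (120 to below 200 bp), 21.1% (200 to below 400 bp) and 20.8% (400 bp or more, 17.7 to 24.2), without a further rise. The intervals cover counting error only. Against the closest annotated transcript, 5 of the 6 isoforms had a retained intron or a new intron that overlapped its span. MSTRG.11905.4 was the exception. At gene level such an intron was present for 3 of the 5 genes and for 33.8% of all genes. This largely repeats the count of genes with an unannotated isoform. Over all genes, 3292 of the 3546 with an isoform had such an intron. The share over all isoforms was not computed, so the 5 of 6 is a description only.

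**Figure D4:**
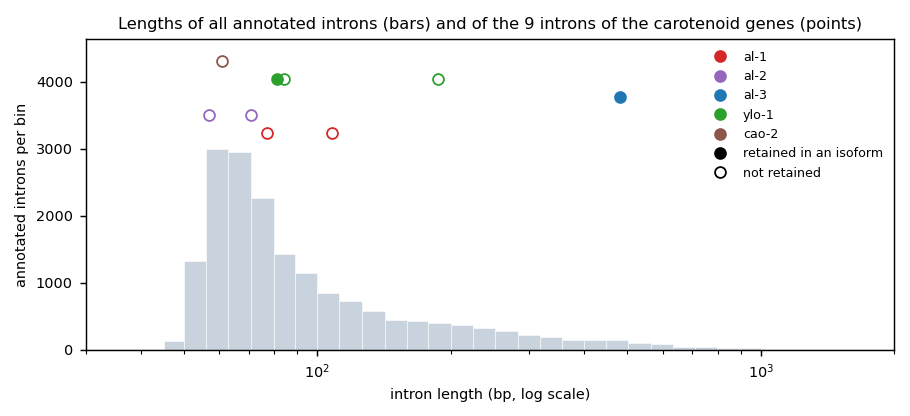
Lengths of 17854 annotated introns (bars, introns per bin) on a log scale in bp, with the 9 introns of the carotenoid genes as points above, filled where an unannotated isoform retained the intron. The al-3 intron of 482 bp stands far to the right of the others, which range from 57 to 187 bp.

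**Figure D5:**
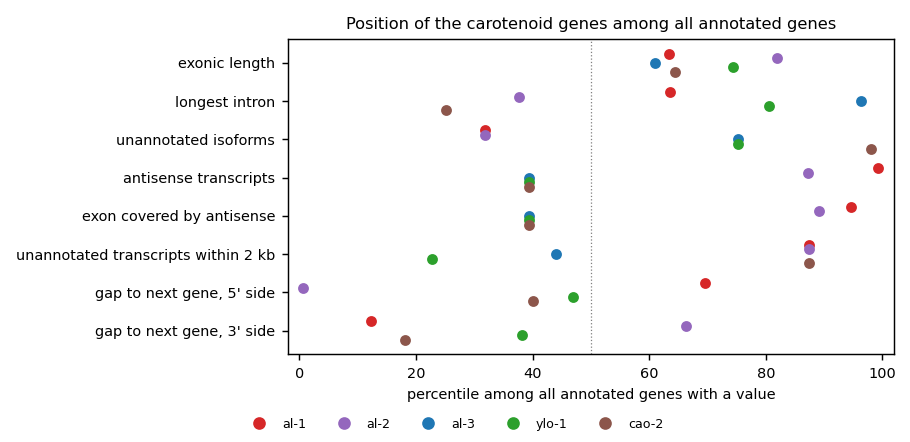
Percentile of each carotenoid gene (points) among all annotated genes with a value, for exonic length, longest intron, counts of unannotated isoforms and antisense transcripts, share of exon covered by antisense transcripts, unannotated transcripts within 2 kb, and the gap to the next gene on each side, with ties at their mid-rank and a dotted line at the median. The gaps are not drawn for al-3, which overlaps an annotated gene. Points for cao-2 (isoforms), al-1 (antisense), al-2 (5′ gap) and al-3 (longest intron) lie at or near the extremes.

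Related genes were described in the same way. The precursor pathway was to be followed by name, and only fpp (NCU01175), the farnesyl diphosphate synthase gene, could be matched by its symbol. It had 1 isoform and 1 antisense transcript, with an overlap of 288 bp. Of the regulators of light-induced carotenoid synthesis, the photoreceptor gene wc-1 had 1 isoform, 3 antisense transcripts and 12.9% of its exon covered by them. Its partner wc-2 had 1 isoform and no antisense transcript, and vvd, the gene of photoadaptation, had no isoform and 2 antisense transcripts over 29.9% of its exon. All 3 regulators had an intergenic transcript within 2 kb, as did 29.1% of all genes. None of their introns was carried by an antisense transcript. The gene cao-1 (NCU07008), which encodes a stilbene-cleaving oxygenase related to CAO-2 and was added after its values were seen, had 2 isoforms and an antisense transcript over 1841 bp, or 90.4% of its exon.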

How the data were processed

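Per the labels, total RNA of 12 libraries was depleted of ribosomal RNA, and the fragments were read from both ends at 100 bp. The study states that strand was kept during library preparation. The authors mapped reads to NC12 with HISAT2 2.1.0, assembled each sample with StringTie 1.3.3b and merged all assemblies with the existing annotation. Replicates and groups are pooled in the result. The authors' deposited file holds positions counted from 1 and a score that is constant or empty and is no expression level. The labels state a total number of reads, but the file holds no counts from which the depth of each library could be read.

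Exons were compared by base overlap of at least 1 bp, and introns by both ends. Isoforms were set against the annotated transcript with which they shared most exon. Symbols and chromosomes came from the RefSeq table of NC12, which matched 9729 of 9730 genes. Named genes are the 5 members, all transcripts at their loci, adjacent or overlapped genes, fpp (the fallback by symbol, as the table gives no products) and wc-1, wc-2 and vvd. Outside this rule, cao-1 and the genes listed among the closing observations were chosen after their values were seen. Members and lists were chosen with earlier results of these data known. No sequences were analysed here. Alternatives were other windows, overlap and length minimums, exon number, the longest transcript per assembly gene and other backgrounds. All 200 simulated transcripts of each of 5 planted kinds were recovered. They were built from the definitions of the classes and planted at genes without a close annotated neighbour. Their recovery checks the code and not the closely spaced or joined structures described here. Python 3.11.15, numpy 2.4.6, scipy 1.17.1 and matplotlib 3.10.9 were used.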

Additional observations from a re-analysis of the deposited data

How the results depend on the processing

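No paired analysis was possible because the file pools all replicates and groups, and no replicate could be left out for the same reason. Of the 59 alternative counts computed, 51 stayed within 1.5 times the count reported, but some of these could not change by construction. Examples are the isoform counts under a stricter antisense overlap and the count of 0 isoforms past the 3′ end under a longer minimum. Counting unannotated transcripts with 2 or more exons only left 10 of 18 at the loci, with 2 antisense and 0 intergenic ones, 1 gene with an antisense transcript (al-1, against 5.82% of all genes), 2 with an isoform (ylo-1 and cao-2, against 33.4%) and 0 with an intergenic one. The antisense ones left were MSTRG.2722.1 and MSTRG.2723.1, which carry the al-1 introns and rest on the strand that the annotation gives. With the longest transcript per assembly gene, 5 isoforms were counted in place of 9. A window of 500 bp gave 5 antisense transcripts in place of 8, and one of 5000 bp gave 4 intergenic transcripts in place of 1. With annotated antisense neighbours counted, 3 of the 5 genes and 40.7% of all genes had one. Against the 8906 assembled genes as the background, the percentiles of exonic length were 60.7 for al-1, 80.4 for al-2, 58.1 for al-3, 72.3 for ylo-1 and 61.8 for cao-2.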

Other observations

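The genes most like al-1 in having every intron carried by antisense transcripts were listed after the al-1 result was seen. Of the 24 such genes with at least 2 introns, 10 had a symbol (41.7%), al-1 among them, against 15.1% of the 4805 genes with at least 2 introns. This background includes genes without a spliced antisense transcript, which could not qualify, and the difference was not tested. Only the genes with a symbol are named here. Besides al-1 these were the glycolytic gene gpd-1 (93.4% of exon covered by antisense transcripts), the elongation factor gene tef-1 (61.3%), the ribosomal protein genes crp-5 (53.1%), crp-7 (91.7%) and ubi::crp-6 (33.6%), the superoxide dismutase gene sod-2 (32.8%), the clock-controlled genes ccg-1 (47.8%) and ccg-16 (100%) and the conidiation gene con-10 (65.5%). The file holds no expression level, so these genes were not compared by level.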
